A study of Mus musculus with 11 samples.

Results

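The genes described here code for the subunits of nuclear RNA polymerases I, II and III and for the basal factors of RNA polymerase I. They were chosen by symbol: every symbol made of Polr1, Polr2 or Polr3 and a letter, together with Twistnb, Cd3eap, Znrd1, Taf1a, Taf1b, Taf1c, Taf1d, Ubtf and Rrn3. This gave 37 of the 23284 genes listed in each file. Of these, 6 are specific to Pol I, 2 are shared by Pol I and Pol III, 5 are shared by all 3 enzymes, 8 are Pol II subunits, 10 are Pol III subunits and 6 are Pol I factors. Taf1a was listed at 0 reads in all 11 tumors and did not enter the tests. Whether the gene models used for counting allowed reads to be assigned to Taf1a is not known, so no upper limit is drawn from these zeros. The other 36 passed the filter on low counts.

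The 11 samples were mouse tumors that model small cell lung cancer, a carcinoma with neuroendocrine features, and their poly(A) RNA was sequenced. The genotype label of all 11 tumors combined Rb and p53 alleles with TRE-MYCN, a doxycycline-responsive MYCN transgene, and LSL-RTTA, a doxycycline-dependent transactivator behind a Cre-removable stop cassette. The MYCN ON group was 7 tumors with doxycycline, and the MYCN OFF group was 4 tumors whose doxycycline had been withdrawn for 7 days. The labels used here give no ages, no source of Cre and no word on how many mice were used, so the p-values rest on how far these tumors differ among themselves. Every tumor carried the transgene, and doxycycline and MYCN changed together, so effects of the drug and of MYCN cannot be told apart.

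Pol I transcribes the large ribosomal RNA precursor in the nucleolus, Pol III makes the 5S ribosomal RNA, transfer RNAs and other short RNAs, and Pol II makes messenger RNA. The enzymes share a common core of homologous or identical subunits, to which Pol I and Pol III add subunits that resemble Pol II initiation and elongation factors. Pol I is brought to its promoter by SL1, a complex of the TATA-binding protein with the Taf1 proteins, by the HMG-box protein encoded by Ubtf, and by Rrn3, which makes the enzyme competent to initiate. Proteins of the MYC family, to which MYCN belongs, bind the E-box CACGTG and are known to promote ribosome production.

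Between 10324089 and 13123838 reads were assigned to genes in each MYCN ON tumor, and between 8951733 and 12190957 in each MYCN OFF tumor. Some library measures separated the groups without overlap: reads with several alignments were 13.8% to 20.9% of the records in MYCN ON and 9.15% to 11.9% in MYCN OFF, ambiguous reads 0.947% to 1.04% in MYCN ON and 0.831% to 0.884% in MYCN OFF, and TMM factors 0.835 to 1.01 in MYCN ON and 1.09 to 1.22 in MYCN OFF. Their part in the results was not tested. The Mycn level, the check of the labels, was 36.5 to 171 CPM in MYCN ON and 5.62 to 15.6 CPM in MYCN OFF (CPM, counts per megaread of the TMM-scaled library), and its log2 fold change 3.06 ± 0.47 SE, adjusted p = 0.00139. Reads were aligned to the mouse build mm9, and how far reads of the transgene were counted as Mycn is not known. The summed level of 10 neuroendocrine markers was 3161 to 4811 CPM in MYCN ON and 1807 to 8670.2 CPM in MYCN OFF. Lung epithelium markers, 13 in number, summed to 59.0 to 3513 CPM in MYCN ON and 143 to 33977 CPM in MYCN OFF, with the lowest MYCN OFF value in tumor 2 and at least 3193 CPM in the other 3. MYCN OFF tumor 2 also stood apart in skeletal muscle markers, at 510.2 CPM summed against at most 119 CPM in any other tumor, and its 8 proliferation markers summed to 3443 CPM, within the 2542 to 5011 CPM of MYCN ON, where the other MYCN OFF tumors had 656 to 2124 CPM. Endothelium markers summed to 81.5 to 383 CPM in MYCN ON and 158 to 867 CPM in MYCN OFF, and immune markers to 143 to 682 CPM in MYCN ON and 239 to 5491 CPM in MYCN OFF. By edgeR, 10 of 14 immune, 3 of 6 endothelium and 3 of 13 lung epithelium markers were lower in MYCN ON. Of 8 proliferation markers, 3 were higher. Of 10 neuroendocrine markers, 1 was higher and 1 lower. Of 5 tested skeletal muscle markers, 1 was lower, and 0 of 6 fibroblast markers were called. Over all genes tested, 16.0% were called higher and 13.4% lower. In bulk tumors, fewer cells of a type and less RNA per cell cannot be told apart, and the part of these other cells in the results below was not tested beyond the values given beside them.

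Of the 36 tested genes, 21 were higher and 0 were lower in MYCN ON at a Benjamini-Hochberg adjusted p below 0.05 in edgeR's quasi-likelihood test, with adjustment over all 15237 genes tested. DESeq2 and limma voom also called 0 of them lower, and 1 was lower at an unadjusted p below 0.05 with each of the 3 tools. Over all genes, 16.0% were called higher and 13.4% lower, 29.4% in either direction. In 19 of the 36, all of them called higher, every MYCN ON tumor lay above every MYCN OFF tumor. This pattern was seen in 11.4% of all genes tested. The reverse, every MYCN ON tumor below every MYCN OFF tumor, was seen in 0 of the 36 and in 5.41% of all genes. The median log2 fold change was 0.75 over the 36 genes and 0.0023 over all genes. The enzymes differed in how many of their genes were called: 5 of 6 Pol I subunits, 8 of 10 Pol III subunits and 3 of 8 Pol II subunits were higher. Median log2 fold changes were 1.31 for Pol I subunits, 0.97 for Pol III subunits and 0.45 for Pol II subunits. With library totals as the only scaling, which moved the median of all genes to -0.31, these medians were 1.002, 0.65 and 0.14 in the same order. That scaling called 5 Pol I, 6 Pol III and 0 Pol II subunits higher, against 8.67% of all genes higher and 21.9% lower. Of the Pol II subunits, 2 were higher at an unadjusted p below 0.05 in edgeR. With limma voom on this scaling 0 were called, and 3 were higher at an unadjusted p below 0.05. At an adjusted p below 0.01, edgeR called 4 Pol I, 6 Pol III and 0 Pol II subunits higher, against 7.79% of all genes higher and 3.39% lower. These counts describe the lists and do not test one list against another.

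**Figure D1:**
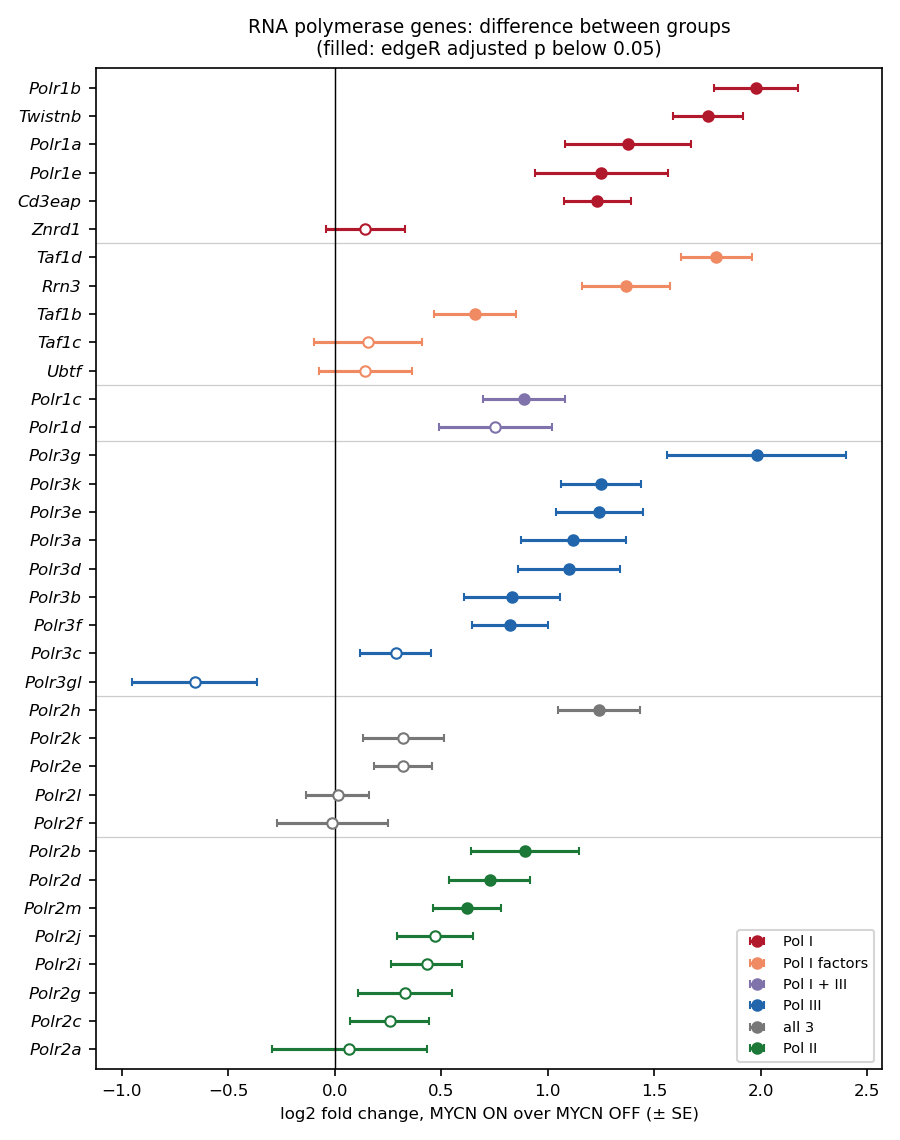
Log2 fold change of 35 tested genes, MYCN ON over MYCN OFF, from edgeR, with its standard error (7 MYCN ON and 4 MYCN OFF tumors). Genes are grouped by enzyme, and filled points passed an adjusted p below 0.05; 5 of 6 Pol I subunits and 3 of 8 Pol II subunits were filled, and Polr3gl lay farthest to the left.

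Both large subunits that form the Pol I active centre were higher in MYCN ON. Polr1b, the second largest subunit, was at 61.04 to 107 CPM in the MYCN ON tumors (median 84.4), against 18.1, 20.2, 24.97 and 21.3 CPM in MYCN OFF tumors 1 to 4. No MYCN ON tumor overlapped with a MYCN OFF tumor, and the fold change was 3.94 (log2 fold change 1.98 ± 0.20 SE, adjusted p = 3.18e-04). Polr1a, the largest and catalytic subunit, was at 64.2 to 152 CPM in the MYCN ON tumors (median 78.8), against 25.1, 54.4, 33.3 and 34.6 CPM in MYCN OFF tumors 1 to 4. Its highest MYCN OFF value, in tumor 2, stayed below the lowest MYCN ON value (2.60-fold, log2 fold change 1.38 ± 0.29 SE, adjusted p = 0.00650).

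The peripheral Pol I subunits followed, with a single exception. Twistnb, the stalk subunit through which Pol I contacts Rrn3, was at 65.2 to 80.4 CPM in the MYCN ON tumors (median 73.8), against 27.6, 17.4, 22.1 and 20.4 CPM in MYCN OFF tumors 1 to 4. The MYCN ON tumors lay close together and far above the MYCN OFF tumors (3.37-fold, log2 fold change 1.75 ± 0.16 SE, adjusted p = 3.18e-04), and Twistnb ranked 7th by p among all genes tested, Polr1b 16th. Cd3eap and Polr1e encode the dimer that resembles the Pol II factor TFIIF. Cd3eap was at 38.3 to 51.8 CPM in the MYCN ON tumors (median 46.9), against 19.5, 19.9, 16.6 and 23.3 CPM in MYCN OFF tumors 1 to 4, without overlap (2.35-fold, log2 fold change 1.23 ± 0.16 SE, adjusted p = 6.33e-04). Polr1e was at 18.2 to 45.7 CPM in the MYCN ON tumors (median 25.6), against 11.03, 12.2, 10.1 and 18.4 CPM in MYCN OFF tumors 1 to 4. MYCN ON tumor 5 lay just below MYCN OFF tumor 4, and the difference passed the test (2.38-fold, log2 fold change 1.25 ± 0.31 SE, adjusted p = 0.0128). Cd3eap overlaps Ercc1 on the opposite strand over 4.73% of its exon bases, and Ercc1 did not pass (log2 fold change 0.34, adjusted p = 0.228).

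Znrd1, the zinc-ribbon subunit that supports RNA cleavage by Pol I, was the Pol I subunit that did not pass. It was at 17.3 to 25.02 CPM in the MYCN ON tumors (median 19.5), against 18.5, 17.6, 17.1 and 19.9 CPM in MYCN OFF tumors 1 to 4. The groups overlapped, with MYCN ON tumors 2, 4 and 5 above every MYCN OFF tumor (log2 fold change 0.14 ± 0.19 SE, adjusted p = 0.587). Per kilobase of transcript, Znrd1 was at 27.2 in MYCN ON and 24.6 in MYCN OFF (CPM per kilobase), while Polr1b was at 20.9 in MYCN ON and 5.29 in MYCN OFF. Over the 6 Pol I subunits the median level per kilobase was 18.9 in MYCN ON and 5.17 in MYCN OFF.

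The start regions of Polr1b and Cd3eap are shown because the genes moved together while only Cd3eap contains the E-box CACGTG. Each sequence covers 250 bases before to 50 bases after the RefSeq start site in build GRCm38.p6, 5′ to 3′ on the strand of the gene, with CACGTG in capitals. The Polr1b region is chr2:129100746-129101045, plus strand, and the Cd3eap region is chr7:19359434-19359733, minus strand.
Polr1b: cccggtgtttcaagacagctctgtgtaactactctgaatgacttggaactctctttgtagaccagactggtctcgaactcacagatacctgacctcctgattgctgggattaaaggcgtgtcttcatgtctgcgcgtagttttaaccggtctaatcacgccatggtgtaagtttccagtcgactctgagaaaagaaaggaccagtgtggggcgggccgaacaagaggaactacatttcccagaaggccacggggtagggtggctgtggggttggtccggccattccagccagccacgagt
Cd3eap: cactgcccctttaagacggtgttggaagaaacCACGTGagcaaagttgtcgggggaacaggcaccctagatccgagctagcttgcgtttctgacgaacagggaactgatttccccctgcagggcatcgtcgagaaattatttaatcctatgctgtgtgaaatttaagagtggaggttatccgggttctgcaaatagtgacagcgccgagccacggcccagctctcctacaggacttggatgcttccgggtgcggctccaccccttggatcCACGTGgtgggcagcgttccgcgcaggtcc
In Cd3eap, 1 of the 2 E-boxes starts 218 bases before the start site and the other 20 bases after it. The build of the count files was mm9, so these coordinates belong to the promoter table and not to the counts.

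Among the Pol I factors, 3 of 5 tested were higher. Taf1d, a subunit of SL1, was at 113 to 175 CPM in the MYCN ON tumors (median 129.9), against 45.2, 32.5, 40.8 and 38.6 CPM in MYCN OFF tumors 1 to 4. The lowest MYCN ON tumor lay far above the highest MYCN OFF tumor (3.46-fold, log2 fold change 1.79 ± 0.17 SE, adjusted p = 3.18e-04). Rrn3 was at 106 to 213 CPM in the MYCN ON tumors (median 148), against 49.3, 70.6, 68.7 and 57.1 CPM in MYCN OFF tumors 1 to 4. The groups did not overlap (2.58-fold, log2 fold change 1.37 ± 0.21 SE, adjusted p = 0.00138). Taf1b, the SL1 subunit that resembles TFIIB, was at 23.00 to 33.8 CPM in the MYCN ON tumors (median 30.5), against 22.4, 13.95, 19.2 and 18.6 CPM in MYCN OFF tumors 1 to 4, with a smaller difference (log2 fold change 0.66 ± 0.19 SE, adjusted p = 0.0249) that was lost on leaving out MYCN ON tumor 1, MYCN OFF tumor 3 or MYCN OFF tumor 4.

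Taf1c and Ubtf did not pass. Taf1c was at 13.03 to 26.9 CPM in the MYCN ON tumors (median 15.8), against 13.03, 17.7, 14.4 and 16.9 CPM in MYCN OFF tumors 1 to 4 (log2 fold change 0.16 ± 0.25 SE, adjusted p = 0.667). Ubtf was at 165 to 242 CPM in the MYCN ON tumors (median 225), against 151, 299, 182 and 134 CPM in MYCN OFF tumors 1 to 4 (log2 fold change 0.14 ± 0.22 SE, adjusted p = 0.644). MYCN OFF tumor 2 had the highest Ubtf level of all 11 tumors, and without it the log2 fold change was 0.45 (adjusted p = 0.0605). Within SL1 Taf1d and Taf1b passed the test and Taf1c did not, and Tbp, which SL1 shares with the Pol II and Pol III machineries, was higher at 53.5 ± 9.40 CPM in MYCN ON and 27.3 ± 1.78 CPM in MYCN OFF (log2 fold change 0.97 ± 0.17 SE, adjusted p = 0.00247). From here on, means carry the SD between tumors (n = 7 for MYCN ON and n = 4 for MYCN OFF).

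The Rrn3 start region, shown because Rrn3 links the enzyme to its promoter, holds 2 E-boxes, which begin 215 and 48 bases before the start site (chr16:13780449-13780748, plus strand, GRCm38.p6).
Rrn3: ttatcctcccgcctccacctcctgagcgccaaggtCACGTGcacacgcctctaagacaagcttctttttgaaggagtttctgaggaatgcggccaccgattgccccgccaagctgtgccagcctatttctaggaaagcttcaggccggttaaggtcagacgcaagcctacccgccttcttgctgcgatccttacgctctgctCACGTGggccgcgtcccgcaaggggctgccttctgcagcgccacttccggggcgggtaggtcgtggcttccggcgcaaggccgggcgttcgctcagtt

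**Figure D2:**
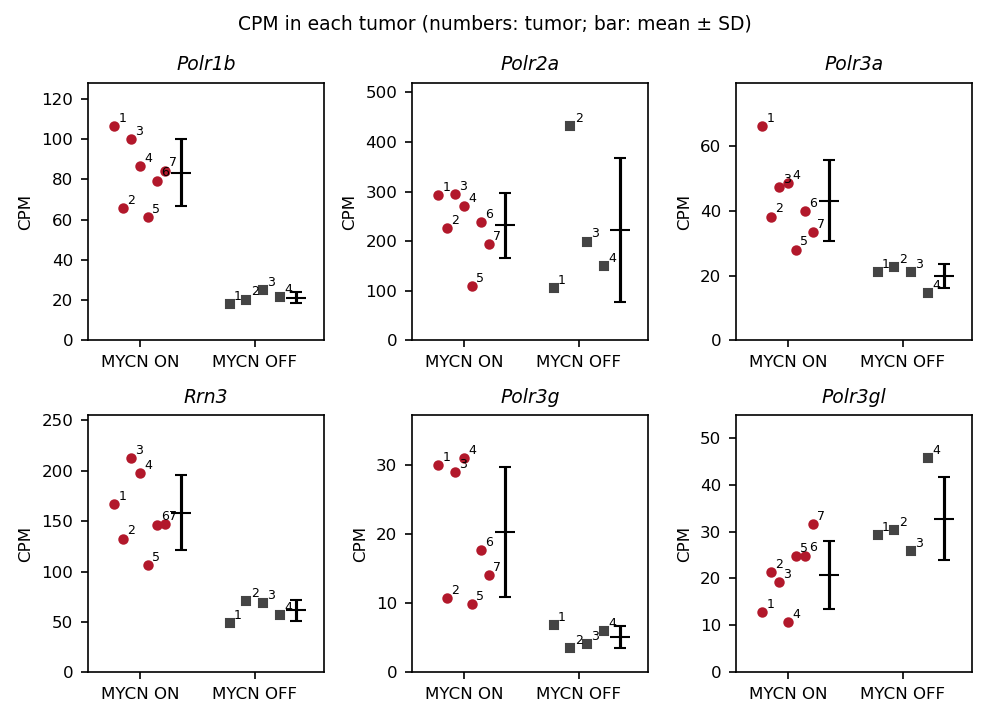
CPM of 6 genes in each tumor, with the tumor number beside each point and the mean ± SD of the group at its right (7 MYCN ON tumors left, 4 MYCN OFF tumors right, linear axes from 0). Polr1b, Polr3a, Rrn3 and Polr3g show no overlap between the groups, the Polr2a groups overlap, with MYCN OFF tumor 2 highest, and most Polr3gl values are lower in MYCN ON.

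Of the 7 shared subunits, Polr1c and Polr2h were higher, to be read beside the 16.0% of all genes called higher. Polr1c, the larger alpha-like core subunit of Pol I and Pol III, was at 78.5 to 157 CPM in the MYCN ON tumors (median 91.7), against 53.7, 53.4, 50.9 and 56.96 CPM in MYCN OFF tumors 1 to 4. The MYCN OFF tumors lay close together and all below MYCN ON (1.85-fold, log2 fold change 0.89 ± 0.19 SE, adjusted p = 0.00643). Its partner Polr1d was at 68.5 to 214 CPM in the MYCN ON tumors (median 129), against 85.5, 64.01, 76.4 and 94.4 CPM in MYCN OFF tumors 1 to 4, and with MYCN ON tumor 7 inside the MYCN OFF range it missed the threshold (log2 fold change 0.75 ± 0.27 SE, adjusted p = 0.0512). Without that tumor Polr1d passed (adjusted p = 0.0164).

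Polr2h was the member called among the 5 subunits common to all 3 enzymes (20%, near the share of all genes). It was at 35.9 to 55.7 CPM in the MYCN ON tumors (median 45.9), against 16.5, 24.1, 17.5 and 18.4 CPM in MYCN OFF tumors 1 to 4, with no overlap (2.37-fold, log2 fold change 1.24 ± 0.19 SE, adjusted p = 0.00142). The other 4, Polr2e, Polr2f, Polr2k and Polr2l, are small subunits of the common core and had log2 fold changes of 0.32, -0.012, 0.32 and 0.014 in that order, with edgeR adjusted p-values of at least 0.0933. Polr2f overlaps 1700088E04Rik on the opposite strand over 27.7% of its exon bases, and that gene was lower in MYCN ON (log2 fold change -1.999, adjusted p = 0.0120). Polr2l lay at 32.9 to 47.2 CPM in the MYCN ON tumors (median 35.6), against 35.6, 34.5, 39.3 and 37.9 CPM in MYCN OFF tumors 1 to 4.

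Of the 10 Pol III subunits chosen by symbol, 8 were higher. Crcp, a Pol III subunit outside this choice, is counted below among the Pol III factors. It was not called, and its groups overlapped (log2 fold change 0.37 ± 0.22 SE, adjusted p = 0.233). Polr3a, the largest and catalytic subunit, was at 28.1 to 66.4 CPM in the MYCN ON tumors (median 40.1), against 21.1, 22.7, 21.1 and 14.5 CPM in MYCN OFF tumors 1 to 4 (2.17-fold, log2 fold change 1.12 ± 0.25 SE, adjusted p = 0.00729). Polr3b, the second largest subunit, was at 55.04 to 114 CPM in the MYCN ON tumors (median 74.3), against 34.7, 50.3, 43.05 and 47.1 CPM in MYCN OFF tumors 1 to 4. The groups did not overlap in either gene, and the Polr3b difference was smaller (1.78-fold, log2 fold change 0.83 ± 0.22 SE, adjusted p = 0.0182) and was lost without MYCN OFF tumor 1 (adjusted p = 0.0569).

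Subunits with roles in elongation and termination were also higher in MYCN ON. Polr3k, the zinc-ribbon subunit that supports RNA cleavage and termination by Pol III, was at 82.1 to 148 CPM in the MYCN ON tumors (median 122), against 51.1, 55.2, 43.3 and 50.6 CPM in MYCN OFF tumors 1 to 4. It had the smallest p of the Pol III subunits (2.38-fold, log2 fold change 1.25 ± 0.19 SE, adjusted p = 0.00126). Polr3d and Polr3e encode the TFIIF-like pair of Pol III. Polr3d was at 34.6 ± 9.14 CPM in MYCN ON and 16.1 ± 2.22 CPM in MYCN OFF (log2 fold change 1.10 ± 0.24 SE, adjusted p = 0.00718). Polr3e was at 37.7 to 68.4 CPM in the MYCN ON tumors (median 49.5), against 25.02, 16.9, 22 and 22.2 CPM in MYCN OFF tumors 1 to 4 (2.37-fold, log2 fold change 1.24 ± 0.21 SE, adjusted p = 0.00178). In both genes every MYCN ON tumor lay above every MYCN OFF tumor.

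Polr3c, Polr3f and the products of Polr3g or Polr3gl form the heterotrimer that Pol III uses in initiation in the enzyme, and Polr3f and Polr3g passed the test. Polr3f was at 53.5 ± 9.04 CPM in MYCN ON and 30.2 ± 4.93 CPM in MYCN OFF, without overlap (1.77-fold, log2 fold change 0.82 ± 0.18 SE, adjusted p = 0.00692). Polr3c was at 42.8 ± 4.69 CPM in MYCN ON and 35.1 ± 7.38 CPM in MYCN OFF and did not pass (log2 fold change 0.29 ± 0.17 SE, adjusted p = 0.211), with MYCN OFF tumor 2 inside the MYCN ON range. Without that tumor its log2 fold change was 0.45 (adjusted p = 0.0552).

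Polr3g and Polr3gl are paralogs that take the same place in the trimer. Polr3g is known for high levels in embryonic stem cells and tumor cells, and Polr3gl for its presence in most differentiated cells. Polr3g was at 9.90 to 31.00 CPM in the MYCN ON tumors (median 17.6), against 6.87, 3.56, 4.12 and 5.996 CPM in MYCN OFF tumors 1 to 4. The fold change of 3.95 was the highest of the 36 genes, and its standard error was also the largest (log2 fold change 1.98 ± 0.42 SE, adjusted p = 0.00626). MYCN ON tumors 1, 3 and 4 had 28.9 to 31.0 CPM, and the other 4 MYCN ON tumors had 9.90 to 17.6 CPM.

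Polr3gl was the only one of the 36 with a log2 fold change below -0.5. It was at 10.7 to 31.5 CPM in the MYCN ON tumors (median 21.3), against 29.2, 30.3, 25.8 and 45.6 CPM in MYCN OFF tumors 1 to 4. MYCN ON tumors 1 and 4, both high in Polr3g, were lowest, and MYCN ON tumor 7 lay inside the MYCN OFF range. The difference did not pass with TMM scaling (log2 fold change -0.66 ± 0.29 SE, adjusted p = 0.109), and with upper quartile factors (log2 fold change -0.87, adjusted p = 0.0471) or library totals (-0.96, adjusted p = 0.0389) it was called lower. The log2 ratio of Polr3g to Polr3gl within a tumor, in which scaling nearly cancels, was -0.087 ± 1.18 in MYCN ON and -2.64 ± 0.43 in MYCN OFF (SD, n = 7 and 4). Every MYCN ON tumor lay above every MYCN OFF tumor, with a difference of 2.56 (adjusted exact permutation p = 0.0114), and leaving out any tumor kept it past the threshold (differences of 2.29 to 2.76). Per kilobase of transcript, Polr3g was at 6.65 in MYCN ON and 1.68 in MYCN OFF and Polr3gl at 14.5 in MYCN ON and 22.9 in MYCN OFF. Polr3gl thus had the higher mean in both groups, but in MYCN ON tumors 1 and 4 Polr3g was the higher of the pair, at 9.80 and 10.2 per kilobase against 8.94 and 7.47 for Polr3gl.

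The start regions of the paralogs and of Polr3e are shown to compare genes of the same enzyme that behaved differently. They lie at chr7:120917528-120917827, plus strand for Polr3e, chr13:81710964-81711263, minus strand for Polr3g and chr3:96594132-96594431, minus strand for Polr3gl (GRCm38.p6, same window, CACGTG in capitals).
Polr3e: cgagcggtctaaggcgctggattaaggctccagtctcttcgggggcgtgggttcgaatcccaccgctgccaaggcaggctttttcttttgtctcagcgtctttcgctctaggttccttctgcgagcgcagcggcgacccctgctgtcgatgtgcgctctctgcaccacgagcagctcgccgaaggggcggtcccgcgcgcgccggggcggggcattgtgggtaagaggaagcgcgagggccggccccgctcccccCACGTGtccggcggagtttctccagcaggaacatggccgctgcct
Polr3g: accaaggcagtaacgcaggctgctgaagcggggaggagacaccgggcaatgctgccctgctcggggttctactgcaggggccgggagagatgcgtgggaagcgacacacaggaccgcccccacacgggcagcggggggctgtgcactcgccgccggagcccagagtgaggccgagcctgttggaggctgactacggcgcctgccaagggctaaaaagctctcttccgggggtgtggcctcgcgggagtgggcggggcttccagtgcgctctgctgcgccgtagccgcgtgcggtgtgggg
Polr3gl: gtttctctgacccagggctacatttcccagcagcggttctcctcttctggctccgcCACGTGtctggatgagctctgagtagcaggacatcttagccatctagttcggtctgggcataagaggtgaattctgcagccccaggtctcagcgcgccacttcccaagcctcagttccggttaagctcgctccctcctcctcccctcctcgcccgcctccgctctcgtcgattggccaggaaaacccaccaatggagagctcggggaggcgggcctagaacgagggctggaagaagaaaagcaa
Polr3e has an E-box 5 bases after its start site, Polr3gl has its E-box 194 bases before it, and the Polr3g window holds none.

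Of the 8 Pol II subunits, Polr2b, Polr2d and Polr2m were higher. Polr2b, the second largest subunit, was at 119 to 316 CPM in the MYCN ON tumors (median 204), against 85.04, 153, 111 and 99.5 CPM in MYCN OFF tumors 1 to 4. MYCN OFF tumor 2 lay inside the MYCN ON range (1.86-fold, log2 fold change 0.89 ± 0.25 SE, adjusted p = 0.0227), and the call was lost without MYCN OFF tumor 1, 3 or 4 (adjusted p = 0.07, 0.0545 and 0.0643). Polr2d, a stalk subunit, was at 47.3 ± 4.88 CPM in MYCN ON and 28.6 ± 7.51 CPM in MYCN OFF (log2 fold change 0.73 ± 0.19 SE, adjusted p = 0.0153). Polr2m, a protein that binds Pol II and competes with TFIIF, was at 251 ± 21.8 CPM in MYCN ON and 163 ± 37.3 CPM in MYCN OFF (log2 fold change 0.62 ± 0.16 SE, adjusted p = 0.0152). The groups did not overlap in Polr2d or Polr2m, and their fold changes of 1.66 and 1.54 were smaller than those of all Pol I subunits that passed.

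Polr2a, the largest and catalytic subunit of Pol II, showed no difference that passed. It was at 109 to 294 CPM in the MYCN ON tumors (median 238), against 105, 433, 199 and 150.1 CPM in MYCN OFF tumors 1 to 4. MYCN OFF tumor 2 had the highest level of all 11 tumors and MYCN OFF tumor 1 the lowest (log2 fold change 0.068 ± 0.36 SE, adjusted p = 0.904). Without MYCN OFF tumor 2 the log2 fold change was 0.63 (adjusted p = 0.131), so the estimate for Polr2a rests on that tumor. Per kilobase of transcript, the largest subunits were at 10.4 in MYCN ON and 3.997 in MYCN OFF for Polr1a, 34.5 in MYCN ON and 32.9 in MYCN OFF for Polr2a and 9.21 in MYCN ON and 4.23 in MYCN OFF for Polr3a.

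The remaining Pol II subunits were not called. The stalk subunit Polr2g (log2 fold change 0.33, adjusted p = 0.277), the alpha-like subunits Polr2c (log2 fold change 0.26, adjusted p = 0.317) and Polr2j (log2 fold change 0.47, adjusted p = 0.0638) and the zinc-ribbon subunit Polr2i (log2 fold change 0.43, adjusted p = 0.0693) all had positive edgeR estimates with overlapping groups. DESeq2 called Polr2i (adjusted p = 0.0405). Polr2c, Polr2i and Polr2j share 18.2%, 34.1% and 15.9% of their exon bases with genes on the opposite strand. The partner of Polr2c, Dok4, was lower in MYCN ON (log2 fold change -1.65, adjusted p = 0.0128), while the partners of the others, Tbcb and Lrwd1, were not called. Polr2b and Taf1d have smaller overlaps of this kind, of 2.05% and 5.6%. Polr1a, Polr3b, Polr3gl and Taf1c overlap by 2.01%, 4.96%, 3.99% and 14.8% with opposite-strand genes that were not analysed here. The strand setting of the counting was not given in the sources used here, and whether reads of these partners entered the counts was not tested.

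**Figure D3:**
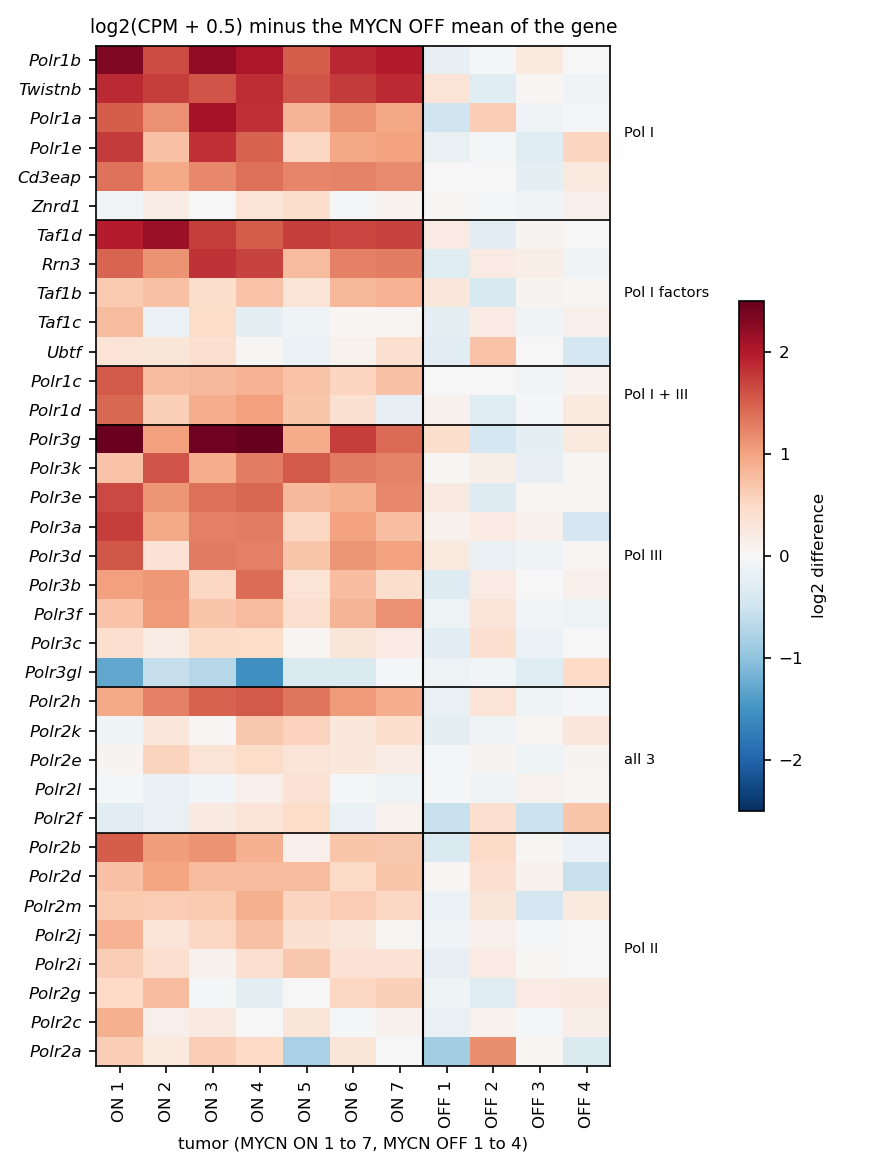
Level of 35 tested genes in each tumor as log2(CPM + 0.5) minus the mean of the gene over the 4 MYCN OFF tumors, with MYCN ON tumors left of MYCN OFF tumors and genes grouped by enzyme. Red is above and blue below the MYCN OFF mean; Pol I rows other than Znrd1 are red in all MYCN ON tumors, Polr2a and Ubtf are red in MYCN OFF tumor 2, and Polr3gl is blue in MYCN ON tumors 1 to 6.

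To compare the enzymes directly, subunits that occupy the same position were set against each other within each tumor as log2 ratios, in which library scaling cancels apart from a prior count of 2. Of 15 ratios, 10 passed a two-sided exact permutation test of the group difference over all 330 splits of the 11 tumors, after Benjamini-Hochberg adjustment over the 15. The smallest p the test allows is 0.00303, and ratios that share a gene are not independent. The ratios were chosen with earlier results of these data known, so their p-values are not independent support.

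Pol I genes gained on Pol II genes at 4 of 6 positions. For the largest subunits, the log2 ratio Polr1a/Polr2a was -1.28 ± 0.34 in MYCN ON and -2.43 ± 0.43 in MYCN OFF, a difference of 1.15 (adjusted exact permutation p = 0.00758). For the second largest, Polr1b/Polr2b was -1.29 ± 0.29 in MYCN ON and -2.37 ± 0.36 in MYCN OFF, a difference of 1.08 (adjusted exact permutation p = 0.00758). For the stalk, Twistnb/Polr2g was 0.11 ± 0.37 in MYCN ON and -1.35 ± 0.33 in MYCN OFF, a difference of 1.46 (adjusted exact permutation p = 0.00758), the largest of these differences. The shared alpha-like subunit Polr1c gained on Polr2c by 0.62 (adjusted exact permutation p = 0.00758). In these 4 ratios every MYCN ON tumor lay above every MYCN OFF tumor, and each passed in all 11 repeats that left out a tumor. Polr1d/Polr2j differed by 0.24 and Znrd1/Polr2i by -0.29, and neither passed (adjusted exact permutation p = 0.227 and 0.0868).

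Polr1c and Polr1d are shared with Pol III, so their ratios above count for both enzymes. Apart from these, Pol III genes gained on Pol II genes at the zinc-ribbon position and for the largest subunits. Polr3k/Polr2i was 1.84 ± 0.33 in MYCN ON and 1.04 ± 0.20 in MYCN OFF, a difference of 0.80 (adjusted exact permutation p = 0.0114). Polr3a/Polr2a was -2.41 ± 0.26 in MYCN ON and -3.28 ± 0.79 in MYCN OFF, a difference of 0.88 (adjusted exact permutation p = 0.0303), with MYCN OFF tumor 1 above 5 of 7 MYCN ON tumors. Without MYCN OFF tumor 2, 3 or 4 this ratio missed the threshold, and without tumor 2 the difference was 0.56 (adjusted exact permutation p = 0.0795). Polr3b/Polr2b differed by -0.072 (ratios of -1.94 to -0.84 in MYCN ON, against -1.60 to -1.08 in MYCN OFF) and did not pass (adjusted exact permutation p = 0.761).

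Between Pol I and Pol III the direction depended on the position. Polr1b gained on Polr3b, with a log2 ratio of 0.12 ± 0.43 in MYCN ON and -1.04 ± 0.23 in MYCN OFF and a difference of 1.16 (adjusted exact permutation p = 0.00758). At the zinc-ribbon position the sign was opposite: Znrd1/Polr3k was -2.54 ± 0.23 in MYCN ON and -1.44 ± 0.14 in MYCN OFF, a difference of -1.09 (adjusted exact permutation p = 0.00758), with every MYCN ON tumor below every MYCN OFF tumor. The largest subunits, Polr1a/Polr3a, differed by 0.28 and did not pass (adjusted exact permutation p = 0.318).

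**Figure D4:**
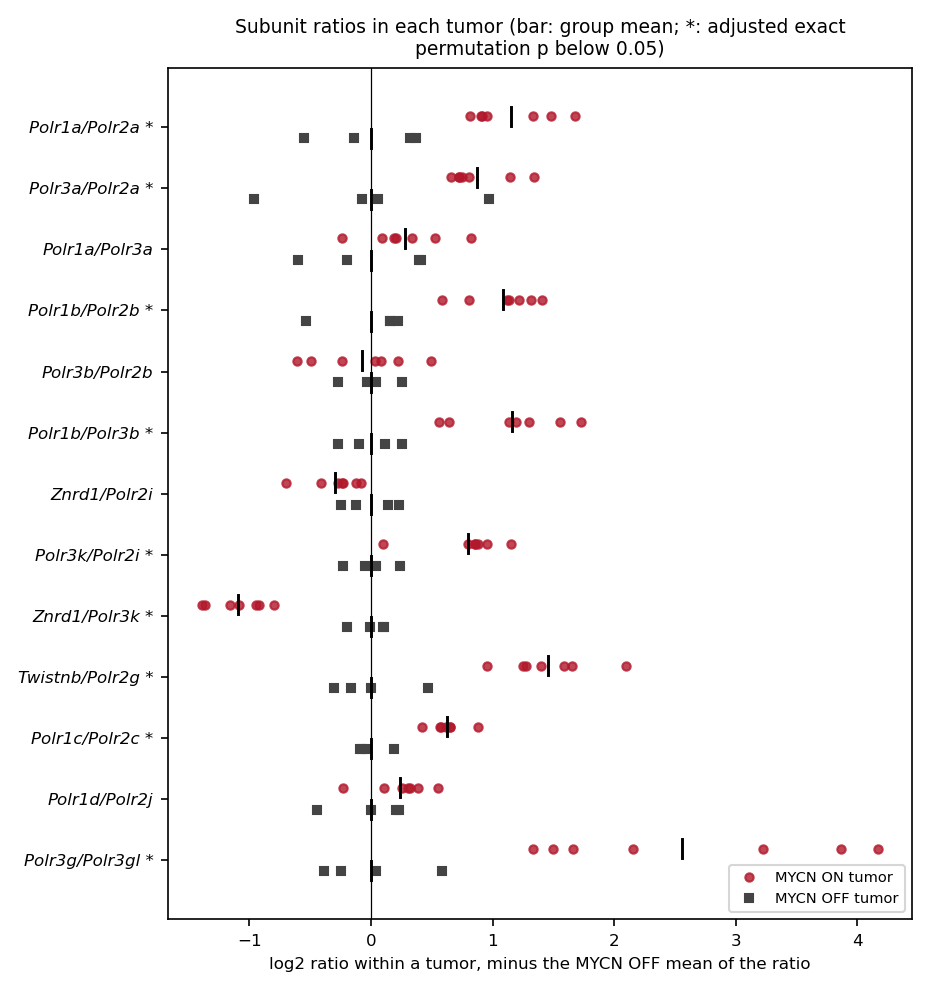
Log2 ratio of the CPM of subunits at the same position of different polymerases, and of the paralogs Polr3g and Polr3gl, in each tumor, minus the MYCN OFF mean of that ratio. Circles are the 7 MYCN ON tumors, squares the 4 MYCN OFF tumors, bars the group means, and stars mark the 9 of 13 ratios shown with an adjusted exact permutation p below 0.05; Znrd1/Polr3k lies to the left, and the Polr3g/Polr3gl values lie farthest to the right.

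The E-box CACGTG, which reads the same on both strands and was searched alone, was found in 6 of 31 genes with an entry in the RefSeq promoter table. These were Cd3eap, Rrn3, Polr2h, Polr3c, Polr3e and Polr3gl. By group, it was in 1 of 6 Pol I subunits, 3 of 7 Pol III subunits, 0 of 6 Pol II subunits and 1 of 6 Pol I factors. Among the polymerase genes tested here, 4 of 17 called higher and 2 of 13 not called held it. Over the 10732 tested genes with a promoter entry, 11.3% held it, 15% of those called higher, 8.63% of those called lower and 10.9% of those not called. Of all 27025 genes in the promoter table, 8.09% held it in at least 1 window. Counted by window, 7.15% of all 32851 held it. The genes with the largest fold changes, Polr1b, Polr3g, Taf1d and Twistnb, have none in this window.

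Genes that work with the polymerases were examined as lists, to be read beside the 16.0% of all genes called higher and the 13.4% called lower. Of 10 tested Pol I cofactors, 7 (70%) were higher and 1 was lower. Ncl, the nucleolar protein nucleolin, was at 2022 ± 557 CPM in MYCN ON and 473 ± 88.3 CPM in MYCN OFF (log2 fold change 2.10 ± 0.25 SE, adjusted p = 5.00e-04), and Ddx21, a nucleolar RNA helicase, at 327 ± 88.2 CPM in MYCN ON and 92.2 ± 20.98 CPM in MYCN OFF (log2 fold change 1.82 ± 0.26 SE, adjusted p = 9.79e-04). Ptrf, known for releasing Pol I transcripts and for building caveolae, was lower in MYCN ON (log2 fold change -1.59, adjusted p = 0.0467). Of 17 Pol III factors, 5 (29.4%) were higher: Gtf3a, which binds the 5S gene (log2 fold change 1.36, adjusted p = 0.00811), the TFIIIC subunits Gtf3c2, Gtf3c3 and Gtf3c4, and Bdp1 of TFIIIB at 115 ± 20.2 CPM in MYCN ON and 54.6 ± 14.3 CPM in MYCN OFF (log2 fold change 1.07 ± 0.20 SE, adjusted p = 0.00342). Brf1, another TFIIIB subunit (log2 fold change -0.02, adjusted p = 0.937), and Maf1, the repressor of Pol III (log2 fold change -0.017, adjusted p = 0.947), were not called, nor were any of the 5 Snapc genes of the small nuclear RNA promoters.

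Of 24 Pol II initiation and elongation factors, 15 (62.5%) were higher. Gtf2f2, the small TFIIF subunit, was at 65.2 ± 23.5 CPM in MYCN ON and 19.8 ± 3.15 CPM in MYCN OFF (log2 fold change 1.72 ± 0.29 SE, adjusted p = 0.00183). Its partner Gtf2f1 did not pass (log2 fold change 0.23, adjusted p = 0.440). Tcea1, the elongation factor TFIIS, was at 248 ± 40.8 CPM in MYCN ON and 116 ± 19.1 CPM in MYCN OFF (log2 fold change 1.10 ± 0.18 SE, adjusted p = 0.00170). Polymerase assembly factors were higher for 5 of 10 (50%), with Gpn1, a GTPase needed for nuclear import of Pol II, at 55.5 ± 10.5 CPM in MYCN ON and 29.04 ± 2.08 CPM in MYCN OFF (log2 fold change 0.94 ± 0.18 SE, adjusted p = 0.00362). For mitochondrial transcription, 1 of 5 genes (20%, near the share of all genes) was called: Tfam, which binds and packs mitochondrial DNA (log2 fold change 0.69, adjusted p = 0.00634), while Polrmt, the mitochondrial RNA polymerase, was not (log2 fold change -0.36, adjusted p = 0.270).

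Some calls were lost when the lung marker score of each tumor entered the fit as a covariate. That fit called 12 of the 36 genes higher, against 7.65% of all genes higher and 3.49% lower. These were 4 Pol I subunits (Polr1a, Polr1b, Twistnb and Cd3eap), Taf1d and Rrn3, Polr1c, Polr2h, and the Pol III subunits Polr3d, Polr3e, Polr3g and Polr3k. Of the Pol II subunits 0 were called, 3 at an unadjusted p below 0.05, and limma voom with the same covariate also called 0 of them (2 unadjusted). Polr1b kept nearly the same estimate (log2 fold change 1.94, adjusted p = 0.00368), as did Polr3k (log2 fold change 1.22, adjusted p = 0.00958), while that of Polr3b was lower (log2 fold change 0.46, adjusted p = 0.218). Calls were also lost where the estimate hardly moved, as for Polr1e (log2 fold change 1.27, adjusted p = 0.0602) and Taf1b (log2 fold change 0.66, adjusted p = 0.134). MYCN OFF tumor 2 lay below all 7 MYCN ON tumors for 23 of the 36 genes, within their range for 11 and above it for 2, a placement in part fixed for the genes called higher, since this tumor entered their test.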

How the data were processed

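Per the labels' protocols, TRIzol was used for extraction, oligo-dT beads for poly(A) selection and a NEBNext Ultra kit for the libraries. The submitters' processing notes name bcl2fastq 1.8.4, TopHat2 2.0.8b, HTSeq 0.6.1 and build mm9; the gene models, options and strand setting are not given in the sources used here. The deposited values are raw counts of reads per gene, 1 file a tumor. Between 9.15% and 20.9% of a tumor's records were reads with several alignments, and 14.8% to 21.5% lay outside genes; these and the other summary rows (5 in all) stayed out of sums and tests.

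Tests used R 4.3.3 and edgeR 4.0.16 (filterByExpr with a minimum count of 10 and a minimum total of 15, TMM factors, robust quasi-likelihood test without covariate, adjusted p below 0.05). This left 15237 genes, with a biological coefficient of variation of 53.7%. A positive log2 fold change means higher in MYCN ON, and its SE was taken from the F statistic (size of the change over the root of F). Values are CPM with TMM factors, and log2 CPM used a prior count of 2. Per-kilobase levels used 1 GENCODE M21 transcript a gene. Exon overlaps came from the same annotation, which is of another build, and start regions from RefSeq (GRCm38.p6), which had 31 of the 37 genes. Alternatives were other scalings, DESeq2 1.42.0, limma 3.58.1 (voom), other filters, a replicate block, a lung marker covariate, a stricter threshold and each tumor left out. No 2 tumors of a group were alike within sampling noise (smallest chi-square per gene 52.1 over 27 pairs).

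Members, lists and ratios were chosen with earlier results of these data known. Named genes were all members, the genes in the ratios, up to 3 genes with the smallest p in each context list, and Mycn. Gtf2f1, Brf1, Maf1, Ptrf, Gtf3c3 and Gtf3c4 were chosen with their values in view, like the full statistics of Taf1c and Polr3d, and overlapping genes by the annotation. Crcp was named as a Pol III subunit outside the choice by symbol. The values of 1 gene and of the 2 ratios that use it are not reported here, though they are part of the counts.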

Additional observations from a re-analysis of the deposited data

Results flagged for a closer look

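A tumor lay apart from the rest of its group in 4 of the 72 sets of tumors examined (36 genes in each of 2 groups), where chance alone gives about 1 in 20. In MYCN ON, Polr1c was at 157 CPM in tumor 1, with the next tumor at 98.8 CPM, and Polr2c was at 130 CPM in the same tumor, with the next at 86.4 CPM. Polr2m was at 296 CPM in MYCN ON tumor 4, with the next at 252 CPM. In MYCN OFF, Polr3f was at 37.6 CPM in tumor 2, with the next at 28.6 CPM, and still below every MYCN ON tumor. Without MYCN ON tumor 1, Polr1c kept its call at a log2 fold change of 0.65.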

How the results depend on the processing

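Of 1002 values of single genes and ratios under the alternatives, 929 kept their side of the threshold, 65 lost the call and 8 gained it. Past the threshold, 0 reversed direction. The 929 include genes not called in either fit whose sign changed. Among these were Znrd1 (log2 fold change 0.14 with TMM and -0.16 on library totals) and Polr2a (0.068 and -0.24). The number of polymerase genes called higher was 18 to 23 with each tumor left out, 5 for Pol I subunits in all 11 of these fits, 2 to 4 for Pol II subunits and 6 to 8 for Pol III subunits, and the ratios past the threshold were 8 to 10. Over all genes these fits called 1674 to 2956 higher, and 1015 to 2440 lower, with the fewest lower without MYCN OFF tumor 1 and 1248 without tumor 4. The median log2 fold change of all genes became -0.31 on library totals and -0.21 on upper quartile scaling. Higher genes were 54.5% of all calls under TMM, 48% under RLE, 37% under upper quartile scaling and 28.4% under library totals, where 1321 genes were higher and 3333 lower. With library totals, 15 polymerase genes were called higher, among them 5 Pol I, 6 Pol III and 0 Pol II subunits. At an unadjusted p below 0.05, 2 Pol II subunits were higher in edgeR and 3 in limma voom, which also called 0. On this scaling 1 polymerase gene was lower, Polr3gl, as with upper quartile factors (1 lower). An adjusted p below 0.01 left 4 Pol I, 6 Pol III and 0 Pol II subunits (5 at an unadjusted p below 0.05), and 1187 higher and 516 lower genes in all. DESeq2 called 3260 genes lower. With the lung score as a covariate there were 1166 genes higher and 532 lower, and 12 polymerase genes, 4 of them Pol III and 0 Pol II subunits. The cause of these changes was not tested. A fit without a low-count filter called 20 of the polymerase genes higher, losing Taf1b, and in all 2113 genes higher and 2439 lower. Same-numbered tumors of the groups were alike for some numbers only: their deviations correlated at -0.162, 0.462, -0.0763 and 0.265 for numbers 1 to 4. MYCN OFF tumors 2 and 4 correlated best with the MYCN ON tumor of the same number. MYCN OFF tumors 1 and 3 correlated best with MYCN ON tumors 5 and 6. Whether tumors of the same number share an origin was not tested. With the replicate number as a block, 1872 of all genes were higher and 1152 lower, and 19 polymerase genes were higher. Polr2m and Taf1b were among the genes that lost their call, and Polr1d gained it. Paired by number, 0 ratios passed, since the smallest p of 4 pairs is 0.125.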

Other observations

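Within the MYCN ON group, many polymerase genes ordered the tumors alike, a pattern noticed after seeing the values and given as a description. In 15 of the 36 genes the 3 highest MYCN ON values were those of tumors 1, 3 and 4, which was so for 7.97% of all genes tested. These 15 included Polr1a, Polr1b, Polr1e, Polr1c, Polr1d, Polr2a, Rrn3 and 6 Pol III subunits. Polr3gl showed the reverse, with its 3 lowest MYCN ON values in the same tumors. Mycn was at 171, 125 and 109 CPM in MYCN ON tumors 1, 3 and 4, and at 59.5, 36.5, 140 and 70.2 CPM in tumors 2, 5, 6 and 7. MYCN ON tumor 5, lowest in Mycn and highest in lung markers of its group, had the lowest MYCN ON value of 15 of the 36 genes.

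Among the MYCN OFF tumors, tumor 2 had the highest value of 17 of the 36 genes and the lowest of 9, and tumor 1 had the lowest value of 16. Polr2a and Ubtf in tumor 2 exceeded every MYCN ON tumor, at 433 and 299 CPM.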
